A study of Mus musculus with 18 samples.

Results

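Nuclear receptors are transcription factors that read lipids, bile acids, vitamins, steroids, thyroid hormone and foreign compounds, and 39 genes of this family were described across the crypt cells of the mouse small intestine (SI) and large intestine (LI). They were taken by gene symbol from a list of the family, by a rule that itself uses no measured value, though the family was picked with earlier results of these data known, and are 39 of the 43346 genes in the deposited count table. All 39 had at least 1 count in some library and all were among the 26717 genes tested. RNA was sequenced from EPCAM+ Lgr5+ cells sorted on 3 levels of GFP from crypts of each site, where high GFP stands for centre cells, intermediate GFP for border cells and low GFP for cells beyond row 3 (row >3). Each of the 6 groups (SI centre, SI border, SI row >3, LI centre, LI border and LI row >3) had 3 libraries, 18 in all. By the labels, all mice were untreated C57BL/6 animals aged 8 to 20 weeks, while the study's methods give a wider age range and a mixed or C57 background for its mice. All carried the Lgr5-eGFP-IRES-CreERT2 allele, so no group came from wild-type animals. In this allele GFP and CreERT2 are made from the Lgr5 locus itself and GFP is patchy from crypt to crypt, so the sort used GFP as a stand-in for position, and position was not measured in the sorted cells. The study's methods call the replicates of a group biological. Neither the segment of the SI nor the mouse behind each replicate number is given in the sources used here, and the p-values measure the spread between these libraries.

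Most nuclear receptors share a DNA-binding domain with a pair of zinc fingers and a ligand-binding domain that changes shape when it holds its ligand. They bind DNA alone, as pairs of the same receptor or as pairs with a retinoid X receptor (RXR), and exchange corepressors for coactivators when ligand is bound. In the intestine, HNF4A and HNF4G are known for the enterocyte programme, FXR (gene Nr1h4) for bile acid sensing, VDR for calcium uptake, the PPARs for fatty acid use, the mineralocorticoid receptor (Nr3c2) for sodium uptake in the colon and LRH-1 (Nr5a2) for crypt cell renewal.

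The P-box, a short stretch in the first zinc finger, is known to help set which DNA sequence a receptor reads. Its coding bases are shown here because they sort the genes into kinds, which need not match groups by DNA preference. The stretch was searched as cysteine, 2 residues, cysteine, 2 residues and a pair of phenylalanines, at the fixed distance from the first cysteine pair of the finger, in the coding transcripts of GENCODE release M21, and it was found in 37 of 38 genes searched. It was not found in Nr0b2 (SHP), a receptor known to lack a DNA-binding domain, and Nr3c1 was not searched. The 24 bases are printed 5′ to 3′ for 1 gene of each kind. Capitals mark the codons at positions 2, 3 and 6 of the stretch, by which the kinds were told apart.
Rxra: tgtGAGGGCtgcaagGGCttcttc
Hnf4a: tgtGACGGCtgcaagGGGttcttc
Nr2f2: tgcGAGGGCtgcaagAGCttcttc
Nr5a2: tgcGAAAGCtgcaagGGTtttttt
Esrra: tgtGAGGCCtgcaaaGCCttcttc
Esr1: tgcGAAGGCtgcaagGCTttcttt
Nr3c2: tgcGGCAGCtgcaaaGTCttcttc
Nr2e3: tgcAATGGCtgcagtGGCttcttc
The kind shown for Rxra was shared by 25 genes, among them every PPAR, RAR, RXR, thyroid hormone receptor and LXR gene of the list as well as Nr1h4, Vdr, Nr1i2 and Nr1i3. Hnf4a shared its kind with Hnf4g, Nr2f2 with Nr2f1 and Nr2f6, Esr1 with Esr2 and Nr3c2 with Pgr. Nr5a2, Esrra and Nr2e3 were each the only gene of their kind. The genes that differed most between centre and row >3 cells and between sites, described next, came from several of these kinds, and the kinds were not compared by a test.

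Promoter windows of 300 bases around an annotated start (RefSeq, build GRCm38.p6) were read for 36 of the 39 genes, in 52 windows. The motif AGGTCA, the half-site that most members of the family recognise, was searched on both strands and lay in 11 of the 52 windows, from 10 genes, against 16.3% of all 32851 windows in the table. The E-box CACGTG lay in 6 of the 52 windows against 7.15% of all, and AGAACA, the half-site of the steroid receptors, in 4 of the 52 windows against 19.0% of all. None of the 3 motifs contains another. Shown here, 5′ to 3′ on the gene's strand with AGGTCA or its reverse complement in capitals, are windows that hold the half-site, of Nr5a2, which differed between sites with all libraries, of Pparg, which did so in fits such as that without the 3 SI libraries of replicate 3, and of Nr1h4 and Nr1d2, genes that differed between centre and row >3 cells.
Nr5a2, chr1:136960399-136960698, minus strand: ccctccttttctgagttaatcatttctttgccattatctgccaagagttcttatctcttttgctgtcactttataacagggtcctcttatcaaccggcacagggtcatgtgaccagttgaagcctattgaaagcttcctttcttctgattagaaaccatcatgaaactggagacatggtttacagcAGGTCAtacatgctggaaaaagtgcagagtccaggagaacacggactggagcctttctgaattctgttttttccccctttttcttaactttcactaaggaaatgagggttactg
Pparg, chr6:115360894-115361193, plus strand: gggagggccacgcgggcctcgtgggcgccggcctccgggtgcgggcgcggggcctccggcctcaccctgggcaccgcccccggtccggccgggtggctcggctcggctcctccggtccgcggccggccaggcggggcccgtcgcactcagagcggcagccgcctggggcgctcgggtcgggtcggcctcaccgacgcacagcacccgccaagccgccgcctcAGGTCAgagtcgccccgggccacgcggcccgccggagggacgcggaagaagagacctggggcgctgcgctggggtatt
Nr1h4, chr10:89506609-89506908, minus strand: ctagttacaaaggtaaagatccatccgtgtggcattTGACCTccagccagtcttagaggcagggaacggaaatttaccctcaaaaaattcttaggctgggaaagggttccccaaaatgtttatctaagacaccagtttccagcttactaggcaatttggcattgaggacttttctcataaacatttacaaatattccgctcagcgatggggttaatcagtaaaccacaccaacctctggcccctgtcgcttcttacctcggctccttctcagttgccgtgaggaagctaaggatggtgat
Nr1d2, chr14:18239057-18239356, minus strand: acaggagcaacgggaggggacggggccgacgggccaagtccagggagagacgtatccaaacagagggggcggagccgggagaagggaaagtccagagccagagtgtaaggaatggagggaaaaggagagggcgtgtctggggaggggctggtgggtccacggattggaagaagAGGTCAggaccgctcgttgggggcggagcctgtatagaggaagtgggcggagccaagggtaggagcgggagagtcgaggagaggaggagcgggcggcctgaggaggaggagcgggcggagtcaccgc
The Nr1h4 window lies around an annotated start inside the gene, whose outermost 5′ end is at 89533585. A match describes the letters in the window only, and no binding was measured.

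The libraries held 8312093 to 31940965 counts. Normalised counts (counts divided by 1 size factor per library, as deposited) of Lgr5 were 3959 ± 1423 (SD, n = 3) in SI centre, 1265 ± 982 in SI border and 159 ± 126 in SI row >3 cells, and 2359 ± 201, 1451 ± 249 and 287 ± 168 in the LI, in the order of the gates. The library labelled SI border replicate 3 had 157, below SI row >3 replicates 1 and 2 at 169.6 and 279.6 (normalised counts), and its summed CPM over 8 stem cell markers, 389, lay among the SI row >3 libraries, so its gate marker goes against its label. Epcam, the epithelial surface gene of the sort, had group means of 15866 to 21120.4. The summed CPM of 9 immune markers, 8 of them measured, was 317 to 600.0 in SI libraries of replicates 1 and 2, 75.5 to 90.03 in those of replicate 3 and 7.36 to 38.9 in LI libraries, so it moved with the site and with SI replicate 3. That of 9 stromal markers ran from 0.501 to 18.4. The 3 SI libraries of replicate 3 stood apart. Their summed CPM (counts scaled to the same sum in every library) over the 10 measured of 12 markers of the LI region was 629.8, 2744 and 4188 in centre, border and row >3 cells, against 239.8 to 586.6 in the other SI libraries and 874 to 2447 in LI libraries. Their sums over 10 markers of the SI region were 169.6, 610.1 and 791, against 285 to 2287 in the other SI libraries and 10.8 to 26.5 in LI libraries, and over 8 Paneth markers 2076, 588 and 233, against 1889 to 8958 and at most 12.5. Whether these libraries hold cells of both sites was not tested, and the labels were kept. Counts of receptor genes called in the SI are therefore also given without these 3 libraries, as are single genes where this is stated. The 6 libraries of replicate 2 held 599 to 1419 counts of the Y-linked Ddx3y and the other 12 at most 1, so replicate 2 also differs by sex. Marker lists moved with the gates: from SI centre to SI row >3 cells the summed CPM ranged from 674 to 10030.3 to 31084 to 50710.2 for 7 goblet markers, from 94 to 337 to 749 to 3356 for 10 absorptive markers and from 1131 to 1847 to 244 to 476 for 8 stem cell markers. In the LI the same sums were 6733 to 10689.9 and 14917 to 23459, 244 to 384 and 1002 to 1662, and 819 to 891 and 356 to 411. Paneth markers (8 genes) summed to 1889 to 8958 CPM in SI centre and 0 to 4.41 in LI centre cells. From SI centre to SI row >3 cells, sums of 8 enteroendocrine markers were 18.4 to 286 and 86.6 to 587, higher within each replicate number. Those of the immune markers were 90.03 to 600.0 and 75.5 to 390, lower within each number, though Ptprc rose in replicates 1 and 2. Those of 7 tuft markers were 30.7 to 417 and 93.5 to 395, higher in replicates 1 and 2 and lower in replicate 3. The part of these cells in the results below was not tested, and in bulk RNA a change in the number of cells of a type cannot be told apart from a change per cell.

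Levels per gene were compared as CPM per kb of merged exons, averaged over the 18 libraries. Hnf4a stood first at 103 CPM per kb, with a lowest library of 79.2 and a highest of 137, and Vdr second at 55.8, from 35.1 to 74.4. The ranges of these 2 genes did not overlap. Next came Nr1h2 (LXR beta, an oxysterol sensor) at 20.6, Thra (thyroid hormone receptor alpha) at 20.5 and Nr3c2 at 19.5, whose libraries overlapped. In all, 13 genes had a mean of at least 10 CPM per kb, 16 a mean of 1 to 10 and 10 a mean under 1. Within families these means differed between members, though in SI centre cells the mean per kb of Rxrb was above that of Rxra. Thra was at 20.5 and Thrb at 4.27, Rxra at 11.9, Rxrb at 8.35 and Rxrg at 0.02 in its highest library, and Rara at 5.89, Rarg at 2.68 and Rarb at 0.17. Nr3c2 and Nr3c1 (the glucocorticoid receptor), at 19.5 and 10.4, were far above Esr1, Esr2 and Pgr, the receptors of oestrogen and progesterone, at 0.164, 0.117 and 0.0679. Nr2f1 (COUP-TFI) and Rxrg had no more than a trace, and Nr0b2 was at 0 in most libraries.

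**Figure D1:**
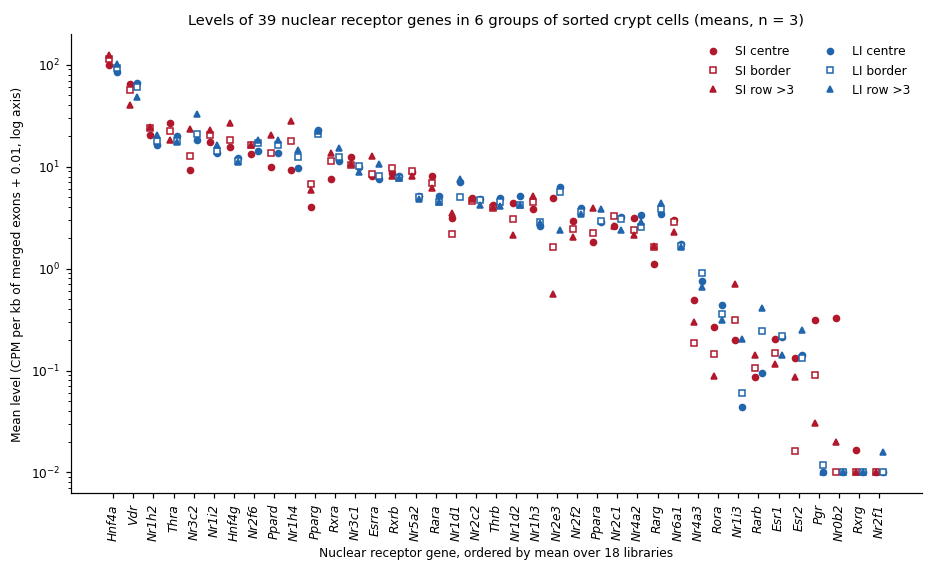
Mean level in each of the 6 groups (n = 3 libraries each) of the 39 genes, as CPM per kb of merged exons plus 0.01 on a log axis, ordered by the mean over 18 libraries; red marks SI and blue LI, circles centre, open squares border and triangles row >3 cells. Hnf4a and Vdr stand above the other genes in all 6 groups, and 10 genes lie below 1 CPM per kb on average.

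Row >3 cells were compared with centre cells to ask which receptor genes change along the crypt axis. In the SI, 13 of the 39 genes passed the test, 7 higher and 6 lower in row >3 cells, which is 33.3% of the genes against 13.2% of all genes tested (edgeR quasi-likelihood test, Benjamini-Hochberg adjusted p under 0.05). The genes tested include many with few counts, so the share of all genes is not matched for level. With edgeR's filterByExpr filter, which drops genes with few counts, 4126 of 15998 genes passed in this contrast. Here and below, a call with all libraries is one made without the replicate number as a block. Higher were Nr1h4, Nr1i3, Ppara, Ppard, Rxra, Hnf4g and Esrra, and lower were Nr2e3, Vdr, Thra, Nr1d2, Rora and Pgr. In the LI no gene passed (0 of 39, against 0.0187% of all genes). An unadjusted p under 0.05 was seen there in 5 of the 39, against 1859 of all 26717 genes. The number of genes called in the SI was 5 to 9 when 1 of SI centre replicates 1 and 2 or of the 3 SI row >3 libraries was left out, and 11 to 13 without any other library, a count in which other genes can take the place of lost ones. Over all genes the same fits called 1973 to 3292 and 3191 to 4114, against 3518 with all libraries. Without SI centre replicate 3, the calls of Hnf4g, Rora and Pgr were lost. Without the 3 SI libraries of replicate 3 the SI count was 15 (17.1% of all genes tested), of which 11 were shared with the 13, and the LI count was 2 (1.9% of all genes). In that fit the log2 fold changes of the shared genes, beside Ppara, were 1.58 for Nr1h4, 1.73 for Nr1i3, 1.25 for Ppard, 0.90 for Hnf4g, 0.79 for Rxra and 0.70 for Esrra, and -3.15 for Nr2e3, -1.30 for Nr1d2, -0.83 for Vdr and -0.70 for Thra. Rora and Pgr did not pass there (adjusted p of 0.0859 and 0.16). With the replicate number as a block, 20 genes passed in the SI (22.8% of all genes) and 4 in the LI (2.59% of all genes).

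Among the bile acid and foreign compound sensors, Nr1h4 (chromosome 10, 89454234 to 89533585), the bile acid receptor FXR, had normalised counts of 456, 431 and 440.2 in the SI centre libraries and 1680.4, 968 and 1327 in the SI row >3 libraries. All 3 row >3 libraries lay above all 3 centre libraries. Its log2 fold change was 1.59 ± 0.32 (SE, adjusted p = 0.00268), or 3.00-fold, and the call held without each of the 18 libraries in turn. In the LI the values were 316, 453 and 541 against 642, 610.4 and 742, again without overlap, with a log2 fold change of 0.60 ± 0.32 (SE, adjusted p = 0.77). Nr1i3 (chromosome 1, 171213970 to 171220701), the receptor CAR that senses foreign compounds, was at 7.29, 18.4 and 25.2 in SI centre against 49.2, 33.2 and 105 in SI row >3 cells, without overlap (1.80 ± 0.48, adjusted p = 0.0114). That call was lost without SI centre replicate 1 or SI row >3 replicate 3 (adjusted p of up to 0.0898). In the LI, Nr1i3 went from 3.53, 2.19 and 3.27 to 18.2, 13.7 and 18.9, also without overlap, with 2.48 ± 0.77 (SE, adjusted p = 0.443). Of its exon bases, 74.9% lie under exons of Tomm40l on the opposite strand, and Tomm40l itself had a log2 fold change of 0.068, adjusted p = 0.966 in the SI, in the test on all libraries. Nr1i2 (PXR, the other sensor of foreign compounds) was at 742, 880.4 and 1122 in SI centre against 1144, 993 and 1444 in SI row >3 cells, which overlapped and did not pass (0.39 ± 0.21, adjusted p = 0.282). It passed with the replicate number as a block (adjusted p = 0.046).

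The genes that FXR, PXR and CAR are known to regulate were read from lists chosen for their pathway. In SI row >3 against centre cells, the counts of these and the later lists stand against 13.2% of all genes called in either direction, or 17.1% without SI replicate 3. Neither share is matched for level. Of 8 FXR target genes, 4 were higher and none lower in SI row >3 than in SI centre cells, namely Fabp6, the bile acid binding protein (log2 fold change 5.38, adjusted p = 0.00202), Slc51a (4.11, adjusted p = 0.00544) and Slc51b, the pair of the bile acid exporter, and Slc10a2, the bile acid importer, which FXR is known to hold down in the ileum through SHP. The median over the list was 3.00, or 3.47 with 1 gene that has no usable fold left out, against 0 over all genes. In the LI none of the 8 passed. Of 13 PXR and CAR target genes, 2 were higher in SI row >3 cells, Gsta1 (normalised counts of mean 63 against 2.81, adjusted p = 0.0032) and Cyp3a13 (log2 fold change 2.64, adjusted p = 0.0309), with a median of 1.85, a share near that of all genes, and none in the LI. The counts higher without SI replicate 3 were 4 of 7 tested for FXR and 5 of 13 for PXR and CAR, with none lower.

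The 3 PPAR genes are given in turn, and their changes were not compared with each other by a test. Ppard (chromosome 17, 28232700 to 28301474), a fatty acid receptor present in most tissues, was at 1261, 1425 and 1850.2 in SI centre, 2231, 1526 and 2531 in SI border and 3296, 3047 and 3142 in SI row >3 cells. All 3 row >3 libraries lay above all centre and border libraries. Its log2 fold change was 1.07 ± 0.18 (SE, adjusted p = 0.000503), or 2.09-fold, and no single library ended the call. In the LI, Ppard went from 2164, 2029 and 1879 to 3248, 2393 and 2492, without overlap (0.42 ± 0.18, adjusted p = 0.637). Ppara, the fatty acid oxidation receptor, was at 86.7, 88.4 and 253 in SI centre against 364, 193 and 364 in SI row >3 cells. The groups overlapped, as replicate 3 of centre was above replicate 2 of row >3. The log2 fold change was 1.11 ± 0.35 (SE, adjusted p = 0.0376) and was 1.68 ± 0.30 (SE, adjusted p = 0.000248) without SI replicate 3. The call was lost without SI centre replicate 1 or 2 or SI row >3 replicate 1 or 3 (adjusted p of up to 0.2), and without SI centre replicate 3 the log2 fold change was 1.80. Pparg, the adipocyte and colonocyte PPAR, was at 66.4, 103 and 557 against 103, 148 and 807 in the same groups and did not pass (0.50 ± 0.96, adjusted p = 0.847). Of 16 PPAR target genes, 2 were higher in SI row >3 cells, the fatty acid binding protein Fabp1 (normalised counts of mean 259 against 56.7, adjusted p = 0.00557) and the fatty acid dehydrogenase Acadm (log2 fold change 0.71, adjusted p = 0.0477), a share near the 13.2% of all genes, and 7 of 15 tested were higher without SI replicate 3. None passed in the LI in either fit.

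Vdr, the vitamin D receptor (chromosome 15, 97854425 to 97910630), fell from 7559, 7524 and 7474 in SI centre to 4341, 4103 and 5420.0 in SI row >3 cells. The 3 centre libraries lay close together and above every row >3 library. The log2 fold change was -0.70 ± 0.15 (SE, adjusted p = 0.0025), and the call held without each library in turn. In the LI the values went from 8520.3, 6395 and 7091 to 5499, 5142 and 5395, again without overlap (-0.45 ± 0.15, adjusted p = 0.478), and that decrease passed with the replicate number as a block (adjusted p = 0.0291). None of 8 VDR target genes passed between row >3 and centre cells in the SI, with a median log2 fold change of 0.84, or 0.33 with 2 genes that have no usable fold left out. The LXR genes did not pass either. Nr1h2 was at 1409, 1587 and 1255 in SI centre against 1654, 1789 and 1583 in SI row >3 cells (0.25 ± 0.15, adjusted p = 0.364), and Nr1h3 (LXR alpha) at 156, 179 and 258 against 323, 171 and 295 (0.41 ± 0.28, adjusted p = 0.445). Of 10 LXR target genes, Lpcat3 (1.21, adjusted p = 0.0113) and Smpdl3a (1.39, adjusted p = 0.0158) were higher in SI row >3 cells (6 without SI replicate 3), and Abca1, the cholesterol exporter, was lower in LI row >3 than LI centre cells (-1.83, adjusted p = 0.0468).

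Of the HNF4 and LRH-1 group, Hnf4g (chromosome 3, 3508030 to 3658052) rose in SI row >3 cells, from 913, 811 and 814 to 2039, 1159 and 1185. All row >3 libraries were above all centre libraries, with replicate 1 far above the other 2. The log2 fold change was 0.79 ± 0.23 (SE, adjusted p = 0.0233), and the call was lost without any 1 of the 3 SI centre libraries or without SI row >3 replicate 1, where the log2 fold change was 0.47 (adjusted p = 0.267). LI values were 566, 655 and 679 in centre against 398, 694 and 631 in row >3 cells, which overlapped (-0.14 ± 0.23, adjusted p = 0.971). Its paralogue Hnf4a, at many times the count, was 11304, 10259 and 8147 in SI centre against 13594, 12513 and 10617 in SI row >3 cells, which overlapped (0.31 ± 0.14, adjusted p = 0.159; adjusted p = 0.0104 with the replicate block). Nr5a2, which binds DNA as a single receptor, had 1175, 1135 and 896 against 1131, 1072 and 762 and did not pass (-0.11 ± 0.21, adjusted p = 0.843). Nr0b2, the corepressor SHP, had 21.1, 0.921 and 0 in SI centre against 0.684, 0 and 0 in SI row >3 cells, so its signal came nearly all from 1 library. Of 15 HNF4 target genes, 8 were higher and none lower in SI row >3 cells, led by the brush border protein Vil1 (1.19, adjusted p = 8.16e-05), the lipid transfer protein Mttp (2.34, adjusted p = 0.000544) and the brush border cadherin Cdhr2 (1.62, adjusted p = 0.00859), with a list median of 1.69. None passed in the LI (median 0.55). Several of these genes are themselves enterocyte markers, and the absorptive marker sums above moved in the same direction.

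Rxra, the RXR partner of most sensors above, was at 759, 748 and 1029.6 in SI centre against 1508, 1089.9 and 1911 in SI row >3 cells, with all row >3 libraries higher (0.83 ± 0.27, adjusted p = 0.0477). The call was lost when any 1 of 9 of the 18 libraries was left out, with an adjusted p of up to 0.17 without SI row >3 replicate 3. LI values were 1441, 1063 and 1188 against 2021, 1398 and 1524, which overlapped (0.43 ± 0.27, adjusted p = 0.856). The other retinoid receptors did not pass with all libraries. Rxrb was at 686, 763 and 679 against 592, 625 and 759 in SI centre and row >3 cells, and Rara, the retinoic acid receptor alpha, at 735, 814 and 639.7 against 569.7, 689 and 386 (-0.40 ± 0.23, adjusted p = 0.303; adjusted p = 0.0422 with the block). Rarg, with 26.7, 19.3 and 242 in SI centre against 94.4, 64.8 and 270.1 in SI row >3 cells, had replicate 3 far above the other libraries of both groups. Its log2 fold change was 0.52 ± 0.88 (SE, adjusted p = 0.814) with all libraries and 1.79 ± 0.51 (SE, adjusted p = 0.0156) without SI replicate 3, and of these 2 fits it passed only in the second. It also passed with the block (adjusted p = 0.0315). Its direction turned, to -0.24, without SI row >3 replicate 3 alone. Of 10 retinoic acid target genes, Isx, which is known to restrain vitamin A uptake, was higher in SI row >3 cells (1.15, adjusted p = 0.000193) and Tgm2 lower (-0.74, adjusted p = 0.0426). Of 25 tested genes that supply or remove ligands, 5 were higher, led by Fabp6 and Fabp1, already given, and the retinol carrier Rbp2 (1.75, adjusted p = 0.0155).

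Thra (chromosome 11, 98740638 to 98769006) fell from 2343, 2689 and 2662 in SI centre to 1581, 1509 and 2101 in SI row >3 cells, without overlap (-0.56 ± 0.16, adjusted p = 0.0226). The call was lost without SI centre replicate 2 or SI row >3 replicate 1 or 2 (adjusted p of up to 0.106). Thrb stayed at 673, 597 and 646 against 586, 522 and 713, and its log2 fold change was -0.072 ± 0.22 (SE, adjusted p = 0.961). None of 5 tested thyroid hormone target genes passed at either site. The LI values of Thra, 1963, 1702 and 1799 in centre against 1856, 1352 and 1507 in row >3 cells, overlapped (-0.21 ± 0.16, adjusted p = 0.932).

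The clock-linked receptors include Nr1d1 and Nr1d2 (REV-ERB alpha and beta), which repress clock genes, and Rora, which activates them. Nr1d2 (chromosome 14, 18204054 to 18239127) fell from 472, 496 and 499 in SI centre to 179, 214 and 306 in SI row >3 cells, without overlap (-1.08 ± 0.29, adjusted p = 0.0158). Without SI row >3 replicate 1 or 2 the call was lost (adjusted p of up to 0.112). Rora, at a low level, fell from 57.5, 63.5 and 86.7 to 15.7, 23.7 and 23.4, also without overlap (-1.75 ± 0.54, adjusted p = 0.0341). That call was lost without any 1 of the 6 libraries of the 2 groups (adjusted p of up to 0.176) and without all SI replicate 3 libraries (adjusted p = 0.0859). Nr1d1 ranged widely within groups, with 158, 119 and 313 in SI centre against 79.3, 149 and 428 in SI row >3 cells (0.10 ± 0.82, adjusted p = 1). Nr1d1 shares 263 exon bases with Thra on the opposite strand, and whether counting used the strand is not given in the sources used here. Replicate 1 was the lowest LI library of all 3 clock-linked genes at every level, with Nr1d1 at 312, 407 and 556 in LI centre, 78.9, 372 and 460.1 in LI border and 229, 484 and 651 in LI row >3 cells. The hour at which each mouse was taken is not given in the sources used here, and its part was not tested. Of 15 clock partner genes, 3 were higher and 3 lower in SI row >3 cells. Bhlhe40 (1.44, adjusted p = 0.000481), a repressor of the clock, was higher, and Tef (-1.09, adjusted p = 0.00415) and Per3 (-1.32, adjusted p = 0.0115), outputs of the clock, were lower.

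Among orphan receptors the clearest change was that of Nr2e3 (chromosome 9, 59942771 to 59960659), a receptor known for photoreceptor identity in the retina. Its normalised counts were 401, 257 and 360.0 in SI centre, 47.2, 185 and 103 in SI border and 25.3, 49.8 and 39 in SI row >3 cells. Every SI row >3 library was below every SI centre library. The log2 fold change was -3.17 ± 0.40 (SE, adjusted p = 4.65e-05), the smallest adjusted p of the 39 genes in this comparison, and it held without each of the 18 libraries. In the LI the counts were 556, 383 and 323 in centre, 483, 347 and 295 in border and 192, 181 and 96.2 in row >3 cells, with row >3 again below centre. The LI log2 fold change of -1.41 ± 0.35 (SE, adjusted p = 0.264) did not pass with all libraries. It passed without SI replicate 3 (adjusted p = 0.0302) and with the replicate block (adjusted p = 0.00584), which moves the LI count to 4 (2.59% of all genes) with Nr3c2, Vdr and Esrra, and the SI count to 20 (22.8% of all genes). Its P-box codons, shown above, also differ from those of the other genes in which the stretch was found. Nr2e3 shares 61 exon bases with Gm15507 on the same strand, a gene that reached 0.117 CPM.

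Esrra (ERR alpha, known for mitochondrial genes) had 681, 553 and 940.0 in SI centre against 1126, 866 and 1446 in SI row >3 cells. Replicate 3 was the highest of its group in both, and the groups overlapped. The rise passed (0.66 ± 0.21, adjusted p = 0.0372) but was lost without SI centre replicate 1 or 2 or SI row >3 replicate 1 or 3 (adjusted p of up to 0.207). In the LI, 716, 593 and 645 in centre against 1015, 875 and 846 in row >3 cells did not overlap (0.49 ± 0.21, adjusted p = 0.633; adjusted p = 0.0467 with the block). Of 10 ERR alpha target genes, a list that holds Esrra itself, 5 were higher in SI row >3 cells, including the citric acid cycle enzyme Ogdh (0.88, adjusted p = 0.00224) and the respiratory protein Cycs (0.85, adjusted p = 0.00785). The list's SI median was 0.61 and its LI median 0.35. The other orphan receptors did not pass with all libraries, and their log2 fold changes in the SI ran from -0.64 for Nr4a3 and -0.60 for Nr4a2 through -0.54 for Nr2f2 and -0.41 for Nr6a1 to 0.29 for Nr2f6, with Nr2c1 and Nr2c2 at 0.0081 and -0.026. With the replicate block Nr2f2 (-0.51 ± 0.14, adjusted p = 0.00975) and Nr6a1 (-0.42 ± 0.14, adjusted p = 0.0369) passed as lower in SI row >3 cells. Nr4a2, an immediate early gene, passed without SI replicate 3 (-1.02 ± 0.26, adjusted p = 0.00618), where centre replicate 3, at the lowest of 344, 343 and 104, is left out. Exons of Nr2f6 lie for 54.4% under those of Ocel1 and exons of Nr2c2 for 30.7% under those of Mrps25, both on the opposite strand. Ocel1 itself was higher in SI row >3 than SI centre cells (1.06, adjusted p = 0.0185) and Mrps25 did not pass (-0.068, adjusted p = 0.92).

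Of the steroid receptors, Nr3c2 was higher in row >3 than in centre cells within every replicate number, with a large offset between the numbers. Its counts were 656, 636 and 2353 in SI centre against 1956, 1844 and 5414 in SI row >3 cells. Each row >3 library was above the centre library of its own number, and replicate 3 was the highest of both groups, so the groups overlapped. The log2 fold change was 1.34 ± 0.67 (SE, adjusted p = 0.257) with all libraries, 1.56 ± 0.17 (SE, adjusted p = 6.20e-07) without SI replicate 3 and 1.45 ± 0.13 (SE, adjusted p = 3.94e-07) with the replicate block. LI values went from 2378, 2258 and 2291 to 5178, 3644 and 3665, without overlap (0.85 ± 0.66, adjusted p = 0.938; adjusted p = 0.00128 without SI replicate 3). Nr3c1 was at 2269.7, 2111 and 1449 against 1927, 1335 and 1761 in SI centre and row >3 cells and did not pass (-0.21 ± 0.20, adjusted p = 0.647). Of 12 tested glucocorticoid and mineralocorticoid target genes only the steroid enzyme Cyp11a1 passed in the SI, lower in row >3 cells (-1.90, adjusted p = 0.0448), and none in the LI. Cyp11a1 is also on the list of LRH-1 target genes. Pgr, the progesterone receptor, had 108, 4.6 and 47.6 in SI centre against 10.9, 0 and 0 in SI row >3 cells, so that 1 centre library held most of the signal. It passed as lower in row >3 cells (-3.52 ± 1.10, adjusted p = 0.0455), though the groups overlapped. The call was lost without any 1 of 8 of the 18 libraries, with an adjusted p of up to 0.255 without SI centre replicate 1. Of 5 tested oestrogen and progesterone target genes, a list that holds Pgr, the protease gene Ctsd was higher and Gper1 and Pgr lower in SI row >3 cells. Esr1, at 55.9, 56.2 and 52.2 in SI centre against 4.79, 7.9 and 74.9 in SI row >3 cells, passed without SI replicate 3 (-3.14 ± 0.62, adjusted p = 0.000646) and not with it (-1.29 ± 0.61, adjusted p = 0.204).

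**Figure D2:**
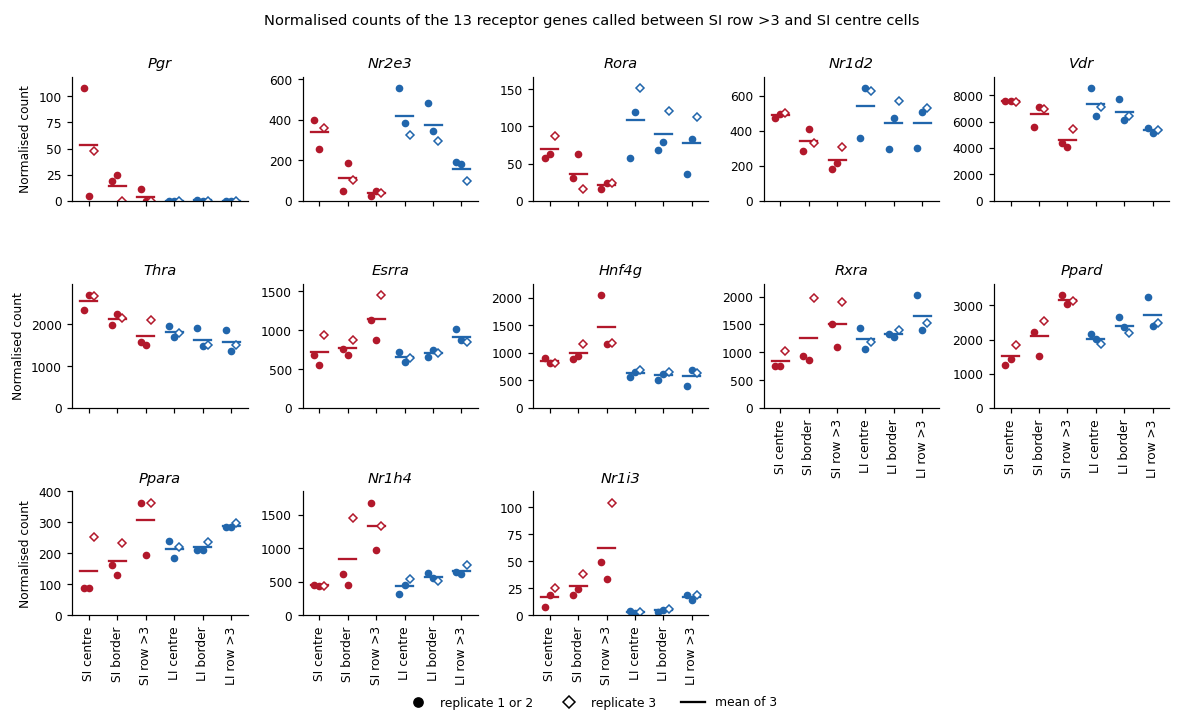
Normalised counts in every library of the 13 genes that passed between SI row >3 and SI centre cells, ordered by log2 fold change, with groups on the x axis and an own linear y axis from 0 in each panel; filled circles are replicates 1 and 2, open diamonds replicate 3 and lines the mean of 3. Nr2e3 falls from 257 or more in SI centre to under 50 in SI row >3 libraries, and Ppard rises in the SI in every row >3 library above every centre library.

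**Figure D3:**
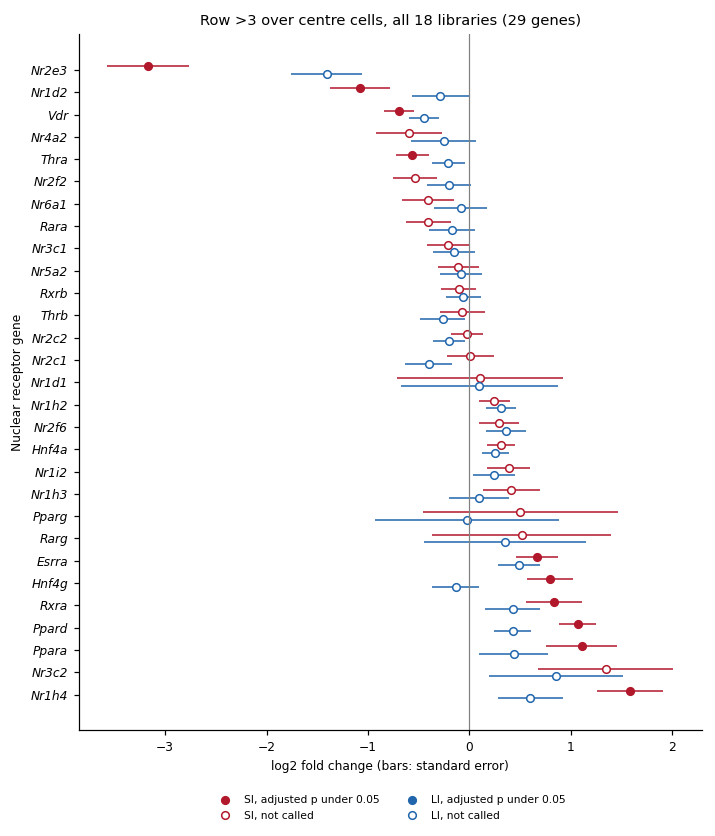
Log2 fold change of row >3 over centre cells (x axis, bars are SE) for the 29 genes with a mean of at least 1 CPM per kb, in the SI (red) and the LI (blue); filled points passed the adjusted p of 0.05. The 10 filled SI points lie on both sides of 0, from -3.17 for Nr2e3 to 1.59 for Nr1h4, and no LI point is filled.

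In the LI, 13 of the 38 genes in the normalised table had 3 row >3 libraries that did not overlap the 3 centre libraries, 9 above and 4 below, against 15.9% of all genes in that table. The 5 with an unadjusted p under 0.05 (against 1859 of all 26717 genes) were Nr1i3, Nr2e3, Vdr, Ppard and Esrra, which all had the same sign as in the SI.

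Whether the change along the axis differs between sites was tested directly. With all libraries no gene passed (0 of 39, and 0% of all genes). An unadjusted p under 0.05 was seen in 4, namely Nr2e3, Hnf4g, Ppard and Nr1h4, against 1800 of all 26717 genes. The SI minus LI difference was -1.76 ± 0.53 (SE, adjusted p = 0.342) for Nr2e3, 0.93 ± 0.32 (SE, adjusted p = 0.486) for Hnf4g, 0.64 ± 0.26 (SE, adjusted p = 0.573) for Ppard and 0.99 ± 0.45 (SE, adjusted p = 0.709) for Nr1h4. With the replicate block Nr2e3 passed (1 of 39, against 2.32% of all genes; -1.79 ± 0.45, adjusted p = 0.041), a steeper fall in the SI. Without SI replicate 3 Ppard passed (1 of 38, against 3.27% of all genes; 0.83 ± 0.23, adjusted p = 0.0487), a steeper rise in the SI. Both shares lie near or below those of all genes.

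Border cells were compared with centre cells in the same way. With all libraries no gene passed in the SI (0 of 39, against 0.0112% of all genes) or in the LI (0 of 39 and 0% of all genes). In the SI 4 of the 39 genes had an unadjusted p under 0.05, against 2399 of all 26717. In the LI none had, against 368 of all genes. SI border and centre libraries did not overlap for 6 of the 38 genes in the normalised table, 1 above and 5 below, against 9.43% of all genes, and LI libraries for 3 of 38 against 6.03%. Nr2e3 was again the leading gene. Its SI border libraries, at 47.2, 185 and 103, all lay below the SI centre libraries, and its log2 fold change of -1.55 ± 0.37 (SE, adjusted p = 0.156) passed with the replicate block (1 gene, against 2.32% of all genes; adjusted p = 0.0126) and in DESeq2 (adjusted p = 0.0203). Without SI replicate 3 it was -1.38 ± 0.45 (SE, adjusted p = 0.27), and no gene of the list passed (0 of 38, against 0.963% of all genes). In that fit 5 of the 38 had an unadjusted p under 0.05, against 1849 of all 26181 genes. With all libraries the other genes with an unadjusted p under 0.05 were Nr1h4 (0.94), Ppard (0.46) and Rxra (0.59), the values being log2 fold changes. In the fit without SI replicate 3 these were 0.22 (unadjusted p = 0.427), 0.44 (unadjusted p = 0.0242) and 0.23 (unadjusted p = 0.274) in edgeR's test, and the SI border counts of Nr1h4 were 616, 455 and 1446, with replicate 3 far above the other 2. The difference between sites in this contrast passed for no gene (0 of 39, and 0% of all genes). Only Nr2e3 of the 39 had an unadjusted p under 0.05, against 708 of all 26717 genes.

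SI border libraries overlapped the SI centre libraries for most of the genes that passed between SI row >3 and centre cells. Vdr had 5582, 7104 and 6912 in SI border and 7674, 6138 and 6427 in LI border libraries, Thra 1983, 2238 and 2145 against 1906, 1487 and 1511, and Nr1d2 283, 407 and 328 against 296, 474 and 567. In all 3 genes every SI border library was below every SI centre library. Hnf4g had 885, 941 and 1167 in SI border and 508, 614 and 651 in LI border libraries, Rxra 937, 869.7 and 1979 against 1322, 1269 and 1394, and Esrra 756, 675 and 875 against 652, 745 and 709, and SI replicate 3 was the highest SI border library of each. Ppara was at 161, 129.6 and 232 in SI border libraries and, in the LI, at 239, 184 and 220.0 in centre, 211, 211 and 237 in border and 285, 285 and 296 in row >3 libraries. Among the low genes, Nr1i3 had 18.9, 24.6 and 37.9 in SI border against 2.75, 4.99 and 5.21 in LI border libraries, without overlap, Rora 30.7, 63.5 and 15.8 against 67.9, 78.6 and 121, and Pgr 18.9, 24.6 and 0 in SI border libraries. Outside the SI, Pgr was above 0 in 1 library, LI border replicate 1, at 0.917. The clock-linked Nr1d2 was at 359, 642 and 625 in LI centre against 302, 506 and 528 in LI row >3 libraries and Rora at 57.6, 119 and 151 against 35.5, 83.5 and 112, which overlapped in both. Of the genes at the highest levels, Hnf4a had 12271, 10912 and 10948 in SI border and 9774, 8620.0 and 8274 in LI border libraries, without overlap, and 9431, 7453 and 7548 in LI centre libraries. Nr1h2 had 1714, 1446 and 1789 in SI border and 1127, 1251 and 1196 in LI border libraries, also without overlap, and 1053, 1062 and 1141 against 1537, 1229.9 and 1264 in LI centre and row >3 libraries. Nr3c2 had 758, 758 and 3499.9 in SI border against 2930.2, 2613 and 2540.0 in LI border libraries, with SI replicate 3 above the LI and the other 2 below it. Nr2f2 ran from 486, 375 and 678 in SI centre to 423, 367 and 518 in SI border libraries, and had 679.8, 715 and 627 and 609.9, 576 and 656 in those of the LI.

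SI cells were compared with LI cells at each level to ask which receptor genes differ by site. With all libraries 2 of 39 genes passed in centre cells (1.99% of all genes), 2 in border cells (1.75%) and 6 in row >3 cells (4.09%), or 5.13%, 5.13% and 15.4% of the 39. These shares of all genes are not matched for level either. With the filterByExpr filter 774, 678 and 1371 of 15998 genes passed. Without the SI libraries of replicate 3 the counts were 11 of 38 in centre (10.9% of all genes), 8 in border (8.1%) and 17 in row >3 cells (12.2%), and they held 1, 2 and 6 of the genes called with all libraries. Those libraries were set apart by their LI region markers, so leaving them out can by itself widen differences between sites. That fit keeps only replicates 1 and 2 of each SI group. SI replicate 3 lay nearer to the LI mean for 7 of the 11, 7 of the 8 and 9 of the 17 genes. Leaving out single libraries took the count with all libraries to between 0 and 4 in centre, 0 and 3 in border and 2 and 8 in row >3 cells. Over all genes the same fits called 180 to 1230, 138 to 863 and 379 to 1686. The counts of target genes between sites, given next, stand against the same shares of all genes.

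Nr5a2 (chromosome 1, 136842571 to 136960448), LRH-1, whose promoter window is shown above, was higher in the SI at all 3 levels. Its counts were 1175, 1135 and 896 in SI centre against 762, 525 and 505 in LI centre cells, and no SI library overlapped an LI library. In border cells they were 1261, 1305 and 736 against 641, 540.2 and 596, and in row >3 cells 1131, 1072 and 762 against 554, 561 and 557. Replicate 3 was the lowest SI library at each level and still above every LI library of that level. The log2 fold changes were 0.79 ± 0.21 (SE, adjusted p = 0.0498) in centre, 0.82 ± 0.21 (SE, adjusted p = 0.0453) in border and 0.77 ± 0.21 (SE, adjusted p = 0.0368) in row >3 cells. Each of these calls lay close to the threshold and was lost without 13, 13 and 7 of the 18 libraries in turn, with log2 fold changes that stayed between 0.67 and 1.03 in border cells. Without SI replicate 3 they were 0.95 ± 0.17 (SE, adjusted p = 0.00036) in centre, 1.07 ± 0.17 (SE, adjusted p = 0.000145) in border and 0.97 ± 0.17 (SE, adjusted p = 0.000213) in row >3 cells. Of 7 tested LRH-1 target genes, 3 were higher in SI centre cells (1.99% of all genes were called), the sterol exporters Abcg5 (normalised counts of mean 457 against 1.76, adjusted p = 9.36e-10) and Abcg8 (mean 419 against 12.3, adjusted p = 3.26e-05) and the steroid enzyme Cyp11a1 (mean 36.7 against 2.3, adjusted p = 0.00892). Abcg5 and Abcg8 are also LXR targets and SI region markers, so they are no independent evidence for either list. Cyp11a1 is also on the list of glucocorticoid and mineralocorticoid target genes.

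Hnf4g was higher in the SI in row >3 cells, with 2039, 1159 and 1185 against 398, 694 and 631 and no overlap (1.29 ± 0.23, adjusted p = 0.00186; 2.44-fold). The call held without each of the 18 libraries and without SI replicate 3. In centre cells the values were 913, 811 and 814 against 566, 655 and 679, without overlap (0.36 ± 0.23, adjusted p = 0.532). Hnf4a in row >3 cells was 13594, 12513 and 10617 in the SI against 10819, 8823 and 9425 in the LI (0.28 ± 0.14, adjusted p = 0.325), and passed without SI replicate 3 (0.42 ± 0.13, adjusted p = 0.0306). Of 15 HNF4 target genes 8 were higher in SI than LI row >3 cells (4.09% of all genes were called), including Mttp (log2 fold change 5.42, adjusted p = 2.02e-06), and 6 in centre cells, with list medians of 3.85 and 2.51 (2.37 with 2 genes at their lower bound). None was lower. Without SI replicate 3, 9 were higher and none lower in row >3 cells, and 6 were higher and 2 lower in centre cells, against 12.2% and 10.9% of all genes.

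Nr1i3 was higher in SI row >3 cells, at 49.2, 33.2 and 105 against 18.2, 13.7 and 18.9, without overlap (1.73 ± 0.47, adjusted p = 0.0348). The call was lost without 8 of the 18 libraries in turn, with an adjusted p of up to 0.162 without LI row >3 replicate 2. Nr1h4 in row >3 cells was 1680.4, 968 and 1327 against 642, 610.4 and 742 in the LI, also without overlap, and passed without SI replicate 3 (0.99 ± 0.22, adjusted p = 0.00335) but not with it (0.94 ± 0.32, adjusted p = 0.119). Of 8 FXR target genes 4 were higher in SI row >3 cells, against 4.09% of all genes called, including Fabp6 (log2 fold change 8.68, adjusted p = 0.000666) and the ileal hormone Fgf15 (normalised counts of mean 55.1 against 0.567, adjusted p = 0.00922). Of 13 PXR and CAR target genes the exporter Abcc2 was higher in SI centre cells (6.02, adjusted p = 1.04e-07), and of 10 LXR target genes Abcg5 and Abcg8. Fabp6 and Slc10a2 of the FXR list, Abcc2, and Apoc3 of the HNF4 list are SI region markers too. Calls of these genes between sites are therefore no independent evidence for their target lists.

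Pparg (chromosome 6, 115360951 to 115490399) had the largest log2 fold change in size between sites, at each level without SI replicate 3, among the genes at 1 CPM per kb or more. In centre cells it had 66.4, 103 and 557 in the SI and 1543, 1260.3 and 1189 in the LI, in border cells 187, 93.3 and 943 against 1162, 1165 and 1358, and in row >3 cells 103, 148 and 807 against 1204, 1264 and 1434. SI libraries were below LI libraries at each level, and SI replicate 3 lay between the other SI libraries and the LI. With all libraries the log2 fold changes of -2.51 ± 0.97 (SE, adjusted p = 0.241) in centre, -1.59 ± 0.94 (SE, adjusted p = 0.523) in border and -1.98 ± 0.96 (SE, adjusted p = 0.354) in row >3 cells did not pass. Without SI replicate 3 they were -4.00 ± 0.26 (SE, adjusted p = 1.15e-10), -3.27 ± 0.27 (SE, adjusted p = 7.47e-09) and -3.39 ± 0.25 (SE, adjusted p = 5.76e-10). Ppara and Ppard were lower in SI centre cells in the same fit, by -1.30 ± 0.29 (SE, adjusted p = 0.00331) and -0.61 ± 0.17 (SE, adjusted p = 0.0178), and neither passed with all libraries (adjusted p of 0.429 and 0.201). No PPAR target gene passed in centre cells with all libraries, and 12 of 15 tested were lower in SI centre cells without SI replicate 3 (10.9% of all genes were called), with list medians of -0.75 and -1.14.

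For the mineralocorticoid receptor gene Nr3c2 (chromosome 8, 76899442 to 77245012), SI replicate 3 was within or above the LI range at each level. The other SI libraries were below every LI library of their level. SI centre libraries had 656, 636 and 2353 and LI centre libraries 2378, 2258 and 2291, so that SI replicate 3 alone was within the LI range. In row >3 cells the values were 1956, 1844 and 5414 against 5178, 3644 and 3665, with SI replicate 3 the highest of the 6. The log2 fold change in centre cells was -0.98 ± 0.66 (SE, adjusted p = 0.579) with all libraries and -1.86 ± 0.16 (SE, adjusted p = 1.61e-08) without SI replicate 3. Of 12 tested steroid target genes 1 was higher and 1 lower in SI centre cells with all libraries, Cyp11a1 and the phosphatase gene Dusp1 (-2.26, adjusted p = 0.0222), and 1 higher and 6 lower without SI replicate 3, against 1.99% and 10.9% of all genes. Cyp11a1 was already counted above among the LRH-1 target genes. Pgr was the one steroid receptor gene that passed between sites with all libraries. It had 108, 4.6 and 47.6 in SI centre and was at 0 in all 3 LI centre libraries. It passed as higher in the SI (adjusted p = 0.0444, lost without 10 of the 18 libraries in turn and up to 0.172). Esr2, the oestrogen receptor beta, was at 0, 0 and 25.2 in SI centre against 11.8, 6.56 and 8.18 in LI centre cells. Without SI replicate 3 the SI centre and SI row >3 libraries were all at 0 and Esr2 was, against a floor of 3 counts per library, at least 3.4-fold lower in SI centre cells (adjusted p = 0.0474) and at least 7.23-fold lower in SI row >3 cells (adjusted p = 0.00335).

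The retinoic acid receptors differed in direction. Rarg was at 26.7, 19.3 and 242 in SI centre against 402, 214 and 258 in LI centre cells, where SI replicate 3 alone was within the LI range. Its log2 fold change was -1.65 ± 0.86 (SE, adjusted p = 0.417) with all libraries and -3.63 ± 0.43 (SE, adjusted p = 1.66e-06) without SI replicate 3, and without SI replicate 3 it passed in border (-2.53 ± 0.42, adjusted p = 0.000204) and row >3 cells (-2.20 ± 0.33, adjusted p = 4.49e-05) as well. Rarb was at 0 in both remaining SI row >3 libraries and at 48.3, 40.2 and 34.9 in LI row >3 cells, at least 18.6-fold lower without SI replicate 3 (adjusted p = 0.000622). Exons of Top2b, on the opposite strand, cover 34.1% of its exon bases. Rara was higher in the SI, at 735, 814 and 639.7 against 569, 330.2 and 430.2 in centre cells without overlap, and passed without SI replicate 3 (0.80 ± 0.19, adjusted p = 0.00675) but not with it (0.67 ± 0.23, adjusted p = 0.136). Rxra was lower in SI centre cells without SI replicate 3 (-0.72 ± 0.18, adjusted p = 0.00999; -0.59 ± 0.27, adjusted p = 0.314 with all libraries).

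Among the orphan and clock-linked receptors, Nr2e3 was lower in SI than LI border cells, at 47.2, 185 and 103 against 483, 347 and 295 (-1.74 ± 0.37, adjusted p = 0.0153), and row >3 cells, at 25.3, 49.8 and 39 against 192, 181 and 96.2 (-2.12 ± 0.41, adjusted p = 0.00318), in both cases without overlap. The border call held without SI replicate 3 (-1.57 ± 0.42, adjusted p = 0.0249) and was lost without SI border replicate 1 or LI border replicate 1 or 2 (adjusted p of up to 0.0776) and the row >3 call held without each library. In centre cells its values of 401, 257 and 360.0 against 556, 383 and 323 overlapped (-0.36 ± 0.34, adjusted p = 0.722). Nr2f2 (COUP-TFII) was lower in SI row >3 cells, at 346, 283 and 434 against 578, 566 and 605 (-0.78 ± 0.22, adjusted p = 0.0454), a call lost without 13 of the 18 libraries in turn and with an adjusted p of 0.0016 without SI replicate 3. Rora was lower as well, at 15.7, 23.7 and 23.4 against 35.5, 83.5 and 112 (-1.97 ± 0.54, adjusted p = 0.0379), lost without 7 libraries in turn and up to an adjusted p of 0.262 without SI row >3 replicate 1. Nr6a1 was at 664, 693 and 634 in SI centre against 459, 375 and 271 in LI centre cells, without overlap, and passed without SI replicate 3 (0.88 ± 0.28, adjusted p = 0.0478). With all libraries its log2 fold change of 0.80 had an adjusted p of 0.119.

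**Figure D4:**
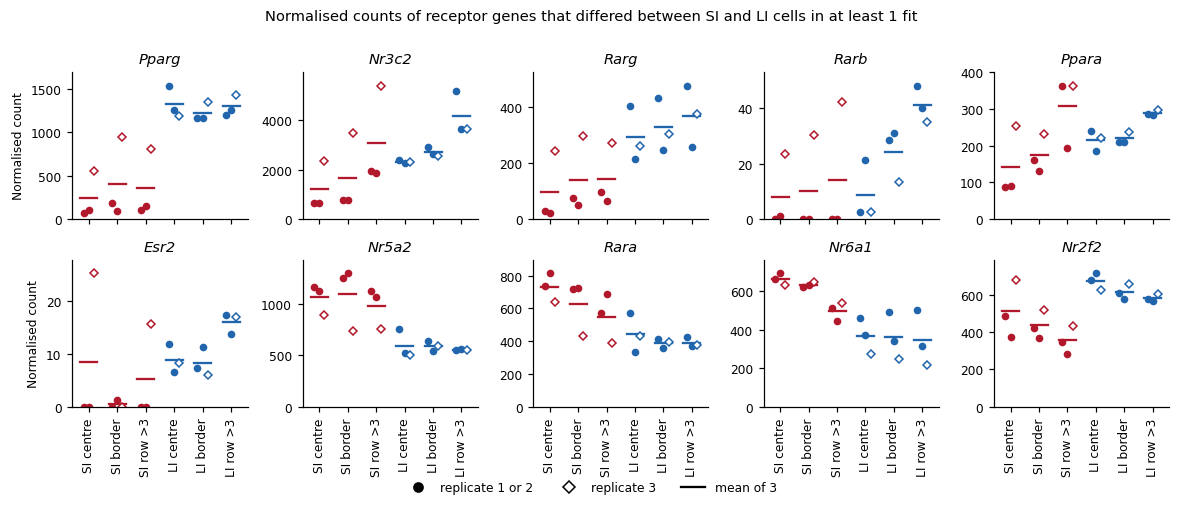
Normalised counts in every library of 10 genes that differed between SI (red) and LI (blue) in at least 1 fit, with an own linear y axis from 0 in each panel; filled circles are replicates 1 and 2, open diamonds replicate 3 and lines the mean of 3. In Pparg, Nr3c2, Rarg and Rarb the SI diamonds lie apart from the other SI points, and in Nr5a2 every SI point of a level is above the LI points of that level.

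**Figure D5:**
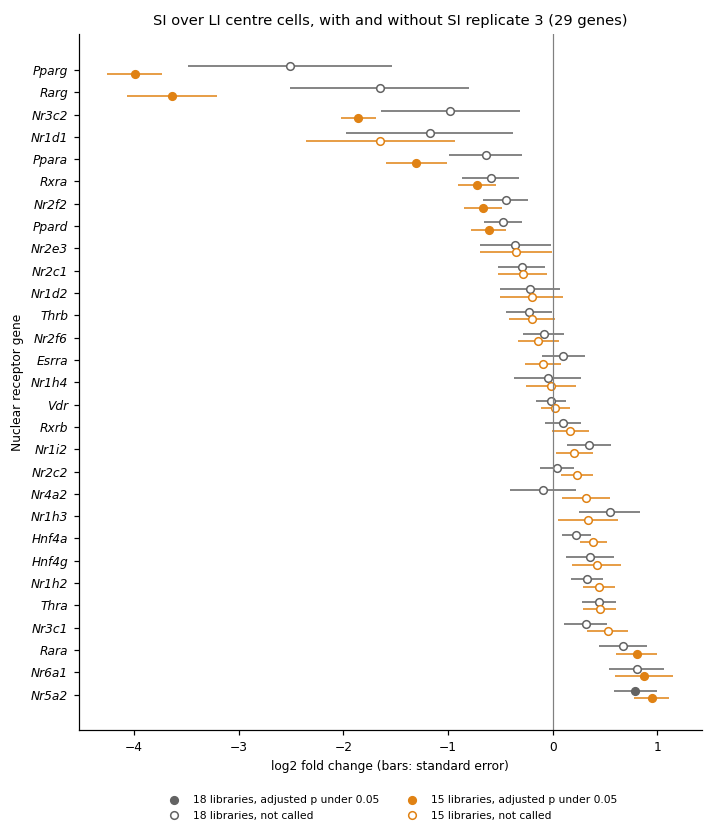
Log2 fold change of SI over LI centre cells (x axis, bars are SE) for the 29 genes with a mean of at least 1 CPM per kb, with all 18 libraries (grey) and without the 3 SI libraries of replicate 3 (orange); filled points passed the adjusted p of 0.05. Pparg moves from -2.51 to -4.00 and Rarg from -1.65 to -3.63, and Nr5a2 alone is filled in both fits.

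Receptors recruit coactivators and corepressors. Of 14 coactivator genes none differed between SI and LI centre or row >3 cells, and in SI row >3 against centre cells Ncoa3 was higher (0.77, adjusted p = 0.00417) and the arginine methyltransferase gene Prmt1 lower (-1.05, adjusted p = 0.0102), with a list median of -0.043. Of 9 corepressor genes Sin3a (-0.64, adjusted p = 0.00499) and Tbl1x (-0.61, adjusted p = 0.00905) were lower in SI row >3 cells, with a median of -0.27, and none passed in the LI. These 2 of 14 and 2 of 9 genes stand against 13.2% of all genes. Of 8 tested receptors outside the 39, Esrrg was lower in SI row >3 than SI centre cells (-2.22, adjusted p = 3.52e-05). Nr4a1, an immediate early gene of the family of Nr4a2 and Nr4a3, was lower in the SI in centre cells (-1.83, adjusted p = 0.00048). Nr4a3, of the same family, had 18.9, 29.8 and 16.8 in SI border and 186, 104 and 29 in LI border cells, which overlapped (-2.29 ± 0.89, adjusted p = 0.234). SI was below LI within each replicate number, though equal numbers were not read as pairs between sites. The difference passed with the replicate block (-2.04 ± 0.50, adjusted p = 0.0211) but not without SI replicate 3 (adjusted p = 0.448). The remaining genes of the list, Nr1h2, Nr1h3, Nr1i2, Nr2c1, Nr2c2, Nr2f6, Rxrb, Thrb, Nr1d1, Nr3c1, Nr0b2, Nr2f1, Nr4a3 and Rxrg, passed in no comparison with all libraries. Of these, Nr1h3 alone passed in a comparison without SI replicate 3, higher in SI than LI row >3 cells (0.84 ± 0.27, adjusted p = 0.0406; adjusted p = 0.0462 with the block). With the block Nr1i2 and Nr4a3 passed as well, as given above.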

How the data were processed

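RNA of 18 libraries of sorted Lgr5+ cells (SMART-Seq Stranded kit, paired-end) was read as whole-number counts per gene, which the authors made by demultiplexing with bcl2fastq, trimming with Skewer and mapping and counting with STAR on mm10. The use of strand in counting and the annotation release are not given in the sources here. The deposited normalised table holds a signal of counts divided by 1 DESeq2 size factor per library, as checked on the values, for 24814 of 43346 genes, 38 of the 39 described among them. Tests used edgeR 4.0.16 (R 4.3.3): TMM scaling, genes with a mean count above 0, 1 fit of 6 groups, a robust quasi-likelihood test and a Benjamini-Hochberg adjusted p of 0.05 over all 26717 genes. The script was tested on simulated data. CPM per kb used merged exon lengths of GENCODE M21. Equal replicate numbers correlated within each site (r of 0.321 to 0.742 in the SI and 0.371 to 0.646 in the LI over 9 pairs each, 11518 genes) and were read as pairs there. Between sites r ran from -0.106 to 0.376 over 27 pairs, and equal numbers were not read as pairs. The block still joins SI and LI libraries of a number, so calls between sites gained with it rest on that joining. Alternatives were DESeq2 1.42.0, library size scaling, scaling by RLE factors, no filter, edgeR's filterByExpr filter, fits of only the groups compared and the replicate number as a block. Others left out 1 library, the SI libraries of replicate 3, set apart by their markers in these data, or the 6 of replicate 2. The legacy fit and the joint setting of block and left-out libraries were added after seeing the data. Values in every library are given for genes called in a main comparison and for the 5 highest in level, and at most 3 genes per pathway list are named by adjusted p. The genes and lists were chosen with earlier results of these data known.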

Additional observations from a re-analysis of the deposited data

Results flagged for a closer look

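The change of Nr2e3 between row >3 and centre cells differed between sites in the fit with the replicate block, by -1.79 (SI minus LI, log2). The change of Ppard differed in the fit without the SI libraries of replicate 3, by 0.83. Neither difference passed with all libraries and no block. Nr4a3 had lower counts in border than centre cells in every SI replicate number and higher counts in every LI replicate number, with a difference of -1.70 that did not pass with all libraries.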

How the results depend on the processing

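With 8312093 to 31940965 counts a library, the values of the 10 genes under 1 CPM per kb rest on few counts. Of 23 results called with all libraries, 23 kept their direction and 4 kept their call in every alternative. Of 47 results that did not pass with all libraries and no block but did without SI replicate 3 or with the block, 44 kept their direction. The cause of the moves was not tested. The genes called between SI and LI centre cells numbered 2 with all libraries, 4 by DESeq2, 0 without the filter, 1 with library sizes only, 5 with the replicate block, 1 with only the groups compared, 11 without the SI libraries of number 3, 0 without the 6 of number 2, 1 by the legacy fit and 16 without SI number 3 with the block. Over all genes these fits called, in the same order, 532, 1241, 401, 617, 1499, 625, 2854, 42, 379 and 3316. The fits given here tested 26717 genes, or 43346 without the filter and 22792 to 26651 with fewer libraries. In border cells the 2 became 5 by DESeq2, 1 without the filter, 5 with the block, 0 with only the groups compared, 8 without SI number 3, 0 without number 2 and 13 without SI number 3 with the block. Over all genes the 468 became 1212, 321, 1141, 267, 2121, 81 and 2464. In row >3 cells the 6 became 2 without the filter, 17 without SI number 3, 1 without number 2 and 19 without SI number 3 with the block. Over all genes the 1092 became 835, 3184, 214 and 3796. Between SI row >3 and centre cells the 13 became 8 without the filter, 20 with the block, 8 with only the groups compared, 3 without number 2 and 20 without SI number 3 with the block. Over all genes the 3518 became 2946, 6103, 2557, 1212 and 6201. For LI row >3 and centre cells the 0 became 4 with the block, 2 with only the groups compared, 2 without SI number 3 and 10 without SI number 3 with the block. Over all genes the 5 became 692, 243, 497 and 1776. SI border and centre cells gave 1 by DESeq2 and 1 with the block, against 209 and 620 over all genes. The difference between sites in row >3 cells gave 1 with the block, 1 without SI number 3 and 9 without SI number 3 with the block, against 620, 857 and 1997 over all genes. Leaving out 1 library at a time gave 0 to 4, 0 to 3 and 2 to 8 genes between sites in centre, border and row >3 cells, 5 to 13 in SI row >3 and 0 to 1 in SI border cells. Over all genes these fits called 180 to 1230, 138 to 863, 379 to 1686, 1973 to 4114 and 0 to 319. Esr2 between SI and LI centre cells turned to 0.25 (log2) without number 2 and ran up to 0.50 without 1 library. Its lowest fitted value, -6.21, is no measured fold, since without SI centre replicate 3 the remaining SI centre libraries were at 0. Rxra between border cells turned to 0.065 without number 2 and ran from -0.64 to 0.098 without 1 library. Rarg between SI row >3 and centre cells ran from -0.24, without SI row >3 replicate 3, to 2.54, without SI centre replicate 3.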
